A study of Mus musculus with 4 samples.

Results

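Plasmacytoid dendritic cells were picked out of 4 single-cell RNA libraries of mouse mammary tumours by their transcripts. Of 28200 cells kept (at least 200 genes, at least 500 unique molecular identifiers or UMIs, and at most 10% mitochondrial UMIs), 94 met the rule. The rule asked for at least 2 UMIs of Siglech and at least 1 UMI of any of Ccr9, Cox6a2 and Klk1, counted together. It also asked for no UMI of Cd3e, Cd79a or C1qa, which mark T cells, B cells and macrophages. The T11-Apobec treated library held 48 of these cells, the T11-Apobec untreated library 20, the KPB25Luv treated library 12 and the KPB25Luv untreated library 14. Values for the 4 libraries are given in this order throughout.

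The series asked how mouse tumours that model triple negative breast cancer respond to checkpoint antibodies. That cancer type lacks the hormone receptors and HER2. T11-Apobec tumours grew in female mice labelled Balbc and KPB25Luv tumours in female FVB/NJ mice. The tumour cells were injected into the number 4 mammary gland and left to reach a diameter of 5 mm. Treated mice then received antibodies against PD1 (10 mg/kg) and CTLA4 (100 ug) biweekly and were sampled after 7 days of therapy, while the comparison tumours of each model had no treatment. Whole tumours were dissociated and loaded without a sort that the labels name. Each group is 1 library, the labels do not say how many animals went into it, and the ages of the mice are not given in the sources used here. Tumour model and mouse strain change together and cannot be told apart.

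Plasmacytoid dendritic cells are bone marrow derived cells that sense viral and self nucleic acids in endosomes through Tlr7 and Tlr9 and can then release large amounts of type I interferon. Their identity is set by the transcription factor Tcf4 with Spib, Irf8, Runx2 and Bcl11a, against the inhibitor Id2, which is needed by conventional dendritic cells. They carry secretory machinery that resembles that of plasma cells, express some genes of the lymphoid lineage, and in tumours are known both as a source of interferon and as tolerogenic cells that produce little of it.

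Before the gene levels, the gate itself needs a description, which is not a finding. The median Siglech count per selected cell was 8, 4.5, 9 and 8.5 UMIs, Ccr9 was found in 82 of the 94 cells, Cox6a2 in 85, Klk1 in 89 and all 3 in 72. Of 203 kept cells with any Siglech UMI, 138 had at least 2, 133 of those had another marker, and the negative markers then removed 19 cells with Cd3e, 2 with Cd79a and 25 with C1qa, some by more than 1 marker. The 5 cells just inside the rule, with 2 Siglech UMIs, had 4571 CPM (UMIs of a gene scaled to a common total, the usual unit that corrects for depth) of Irf8 and 1032 of Rnase6 when summed, against 493 and 189.7 CPM in the 3 cells just outside it, with 1 Siglech UMI and another marker. Bst2 was at 3244 CPM inside and 493 outside, while Tcf4 was closer, at 1032 and 721 CPM. The 5 cells held 13565 UMIs and the 3 cells 26363, and each of the 3 had a UMI of Tcf4, Bst2 and Rnase6. A Siglech UMI was found in 0.379, 0.733, 0.216 and 0.257% of T cells, which should lack the gene (median 3925, 1911, 4165.5 and 4933 UMIs per T cell against 3767.5, 2477, 5095.5 and 5010 per plasmacytoid cell).

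Rnase6, a secreted ribonuclease that is a marker of these cells and was not part of the rule, was found in 48 of 48, 19 of 20, 12 of 12 and 14 of 14 cells. With every cell reduced to 1000 UMIs it was found in 39 of 48, 13 of 20, 10 of 12 and 11 of 13. In T cells the share with a Rnase6 UMI was 0.927, 1.83, 0.433 and 1.42%, far below the share in the gated cells of the same library. It was higher in B cells, at 34.6, 13.2, 29.3 and 21.5% (median 1669, 940.5, 2666 and 2028 UMIs per cell). In macrophages it was 10.9, 2.21, 10.7 and 4.71%, so the gene is not limited to the gated cells. Because the cells were selected on 7 genes, the tests below describe how the gated cells differ in genes other than those. By the GENCODE annotation of mouse build mm10 (GRCm38), the protein-coding gene Rnase6 lies on chromosome 14 from 51123908 to 51132187 on the forward strand, and Siglech, a lectin that binds sialic acid and dampens interferon release, on chromosome 7 from 55768178 to 55778925 on the forward strand. The pan-leukocyte gate used to define the other immune cells also took 89 of the 94 cells.

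Some selected barcodes held transcripts of another cell type as well. A barcode with 10 or more summed UMIs from the macrophage, T cell, neutrophil, or tumour and stromal marker lists is called mixed here, a definition set after the cells had been seen. For this count Ccr2 and C1qa were left out of the macrophage list and Cd3e and Cd8b1 out of the T cell list. Cdh5 and Pecam1 were left out of the tumour and stromal list. No barcode was thus called mixed for these genes. There were 13 mixed barcodes (3, 4, 1 and 5), of which 8 passed on macrophage, 4 on tumour, 3 on neutrophil and 2 on T cell markers. Most were large barcodes. Their median was 7668, 7876, 8588 and 9068 UMIs and their minimum 6437, 2437, 8588 and 6398, against a median of 3723, 2355, 4909 and 4164 in the others, whose maximum was 4782, 3029, 6684 and 5684. In the T11-Apobec untreated library 2 of the 4 mixed barcodes, both with neutrophil markers, were within the range of the others. They held 11.9, 46.8, 13.4 and 63.4% of all plasmacytoid UMIs, a larger part in both untreated libraries, so every level below that rests on sums is also given, where it matters, without them.

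The whole marker lists were counted in the selected cells. Of the 14 macrophage markers, 12, 8, 3 and 12 had a UMI, with a summed level of 1893, 1106, 735 and 3245 CPM (741, 868, 740.1 and 1549 without the mixed barcodes). Of the 14 tumour and stromal markers, 4, 9, 2 and 9 had a UMI (270, 3165, 219 and 1681 CPM, and 288, 526, 235 and 602 without the mixed barcodes), while Krt5 and Rgs5 were at 0 in all 4 libraries. Of the 10 neutrophil markers, 2, 4, 3 and 8 had a UMI (59.3, 924, 125 and 977 CPM, and 49, 26.3, 144 and 172 without the mixed barcodes). The 12 B cell markers summed to 1170, 126, 594 and 305 CPM, with a UMI in 36 of 48, 6 of 20, 12 of 12 and 9 of 14 cells, and those at 0 in all 4 libraries included Ms4a1, Pax5, Ighd, Fcer2a, Cr2 and Fcmr. Of the 10 NK cell markers 3, 1, 4 and 2 had a UMI (140.2, 84, 141 and 63 CPM), and Ncr1, Klrb1c, Prf1, Klrb1b and Eomes were at 0. Of the 16 conventional dendritic cell markers 12, 10, 11 and 10 had a UMI (1014, 798, 1157 and 567 CPM), while Zbtb46, Xcr1, Itgae and Ccl22 were at 0; Flt3, Cd209a and Clec10a of this list were called higher than in other immune cells. Beside the results that follow, the part of these transcripts was not tested other than by leaving the mixed barcodes out.

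For comparison, 3 classes were taken from the same libraries: 17078 other immune cells (5200, 3717, 5108 and 3053), 56 conventional dendritic cells (5, 17, 16 and 18) and 1292 B cells (523, 38, 601 and 130). UMIs were summed per library and class, and each gene was tested over the 4 libraries with edgeR's quasi-likelihood test, with the library as a block and Benjamini-Hochberg adjustment. Genes of the gates, such as Siglech or the MHC class II genes that define the conventional dendritic cells, are left out of each comparison they gated. Against other immune cells, 383 of 5504 genes (6.96%) were called higher in plasmacytoid cells and 354 (6.43%) lower. Against conventional dendritic cells 214 of 5478 (3.91%) were higher and 135 (2.46%) lower, and against B cells 543 of 5345 (10.2%) were higher and 420 (7.86%) lower. The median log2 fold change of all genes tested was -0.01, 0.04 and 0.03, and the 3 comparisons share the plasmacytoid sums.

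**Figure D1:**
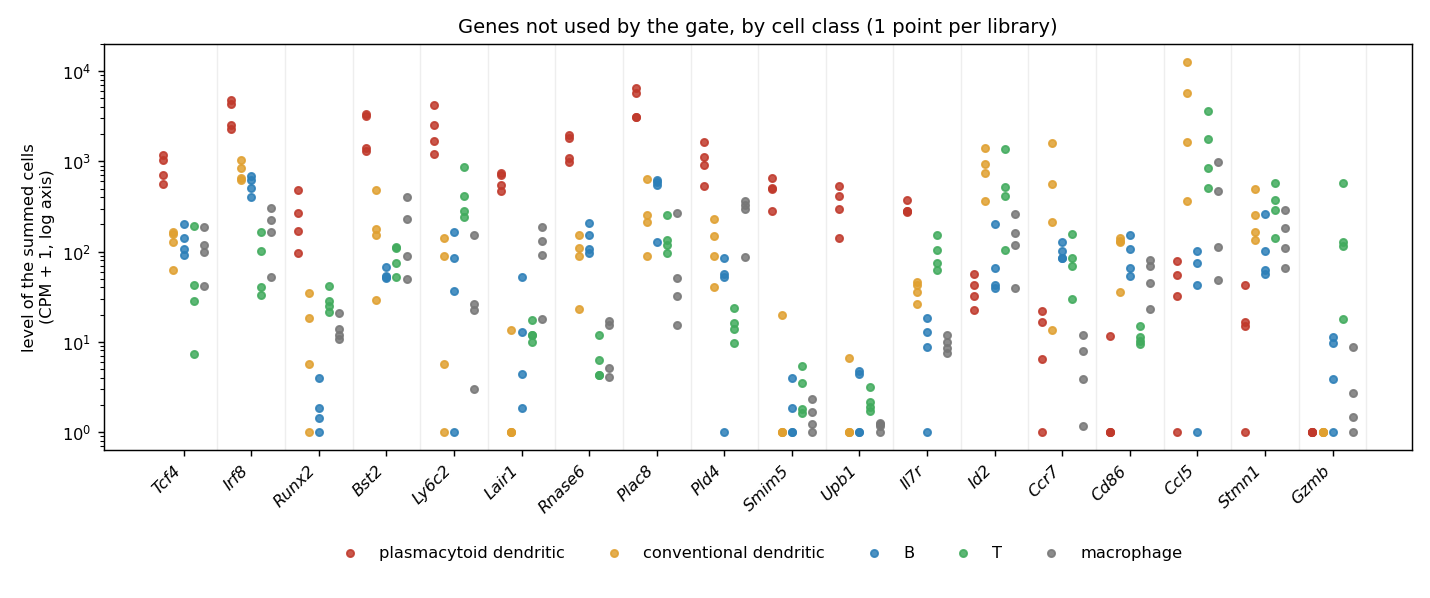
Levels of 18 genes that the plasmacytoid gate did not use, in 5 cell classes, as CPM plus 1 on a log axis; each point is 1 library. The points for Tcf4, Irf8, Bst2, Rnase6, Plac8, Smim5 and Upb1 in plasmacytoid cells lie above those of the other 4 classes in every library, and those for Id2, Ccl5 and Stmn1 lie below those of conventional dendritic cells and of T cells.

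Transcription factors of the lineage stood higher as a group. Of 14 such genes 12 passed the filter on mean level, and 9 rose over other immune cells with none lower, against 6.96% of all genes. The list median was 3.21 on the log2 scale. Against conventional dendritic cells 8 of 13 rose and none fell, and against B cells 8 of 12 rose and 1, Mef2c, fell. Of all genes 3.91 and 10.2% rose in these comparisons, and 2.46 and 7.86% fell. Without each library in turn, 8 of the 9 calls over other immune cells remained; Cbfa2t3 lost its call without the T11-Apobec treated library (adjusted p = 0.064). All 9 remained without the mixed barcodes. Of the calls against conventional dendritic cells 6 of 8 remained without each library in turn, and of those against B cells 7 of 9.

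Tcf4, the basic helix-loop-helix factor that the lineage depends on, was at 1181, 700.2, 1047 and 567 CPM in plasmacytoid cells and at 37.5, 101, 16.9 and 32.5 CPM in other immune cells. The lowest plasmacytoid library was above the highest of the other class. The log2 fold change was 4.35 (adjusted p = 0.00032), with 2.72 over conventional dendritic cells (adjusted p = 0.00057) and 2.76 over B cells (adjusted p = 4.6e-07).

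Irf8, which conventional type 1 dendritic cells and B cells also use, was at 4379, 2521, 4845 and 2269 CPM. Conventional dendritic cells had 839, 1037, 656 and 627 CPM, and other immune cells 232, 256, 116 and 189. All 4 plasmacytoid libraries were above both classes, by 2.02 on the log2 scale over conventional dendritic cells (adjusted p = 0.0012) and by 3.99 over other immune cells (adjusted p = 7.7e-05).

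Runx2, which these cells need to leave the bone marrow, separated them most from B cells. Its level was 485, 168, 266 and 94.5 CPM, against 0.855, 0, 0.411 and 2.92 CPM in B cells, a log2 fold change of 8.08 (adjusted p = 4.6e-10), and 28.1, 8.32, 21.2 and 16 CPM in other immune cells (3.59, adjusted p = 0.0001). Spib, an Ets factor shared with B cells, was at 334, 98, 172 and 126 CPM in plasmacytoid cells and at 159.9, 203, 157 and 161 CPM in B cells, so the classes overlapped and no difference was called. Over other immune cells, which had 11.2, 2.35, 18.3 and 5.4 CPM, Spib was higher by 4.35 (adjusted p = 0.00012). Bcl11a, a zinc finger factor of lymphoid progenitors, was at 582, 462, 344 and 263 CPM against 22, 5.05, 26.6 and 7.8 CPM in other immune cells (4.85, adjusted p = 9.4e-05).

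Id2, the inhibitor that Tcf4 activity is held against, was at the other end. It was at 21.6, 56, 31.3 and 42 CPM in plasmacytoid cells, at 943, 1417, 751 and 365 CPM in conventional dendritic cells and at 996, 327, 388 and 206 CPM in other immune cells. No plasmacytoid library reached the lowest of either class. It fell by 4.52 on the log2 scale against the former (adjusted p = 0.00011) and by 3.8 against the latter (adjusted p = 0.00092). Batf3, which conventional type 1 dendritic cells need, had 2 UMIs in all 94 cells.

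Flt3, the receptor for the cytokine that dendritic cells of both kinds depend on, was at 129, 154, 109 and 31.5 CPM in plasmacytoid cells and at 1.21, 3.13, 2.31 and 3.13 CPM in other immune cells (5.35, adjusted p = 0.0006).

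**Figure D2:**
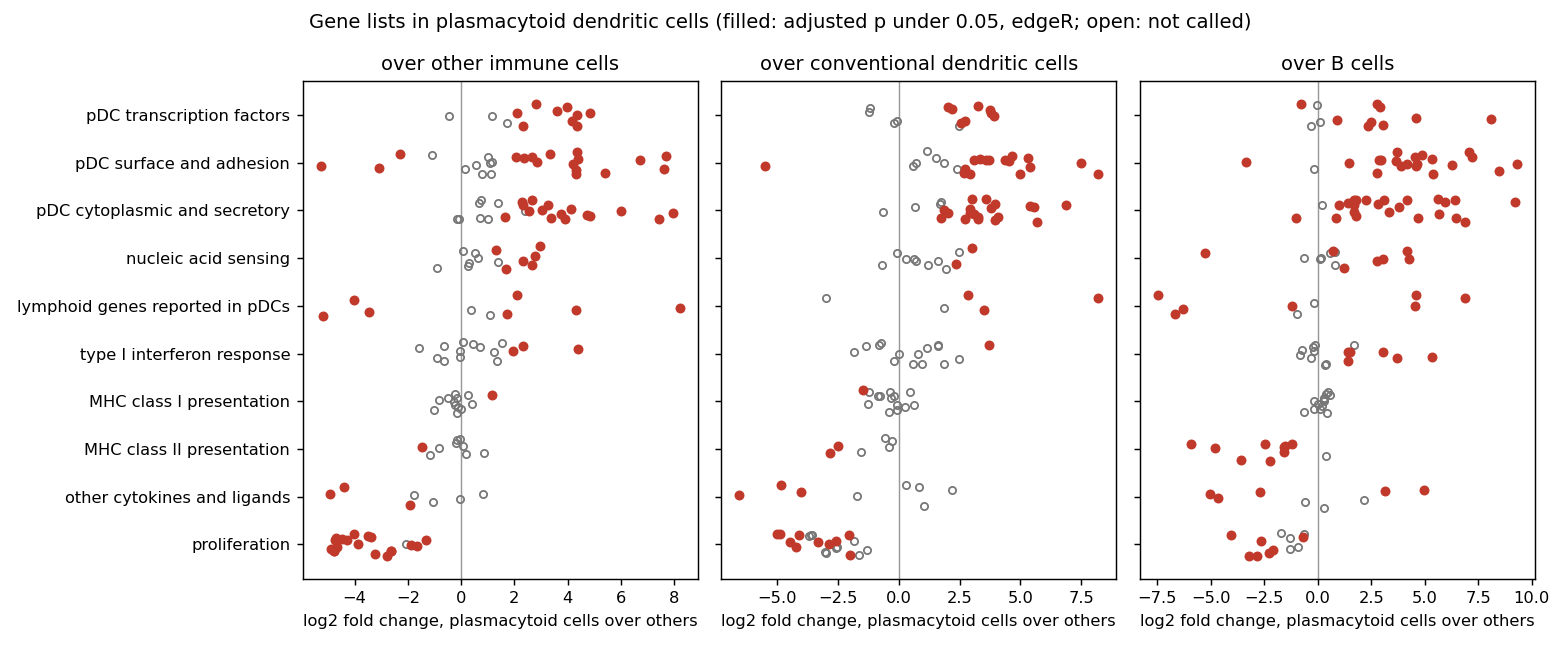
Log2 fold change of plasmacytoid dendritic cells over other immune cells, conventional dendritic cells and B cells for the tested genes of 10 lists, 1 point per gene, filled where the adjusted p was under 0.05; genes with no UMI in either class of a comparison are not drawn. Transcription factor, surface and secretory genes lie mostly to the right of 0, and proliferation genes to the left in all 3 comparisons.

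The surface and adhesion list had 14 of 25 tested genes higher than in other immune cells and 3 lower (list median 2.35). Of all genes 6.96% were higher and 6.43% lower. Against conventional dendritic cells 16 of 23 were higher and 1 lower (all genes, 3.91 and 2.46%). Against B cells 21 of 23 were higher and 1 lower (all genes, 10.2 and 7.86%). The gene lower in all of these was Ccr7, and Cd28 and Pdcd1 were the other two against immune cells. Of the 17 calls against other immune cells 13 remained without each library in turn; those for Cd28, Cd300c, Ly6c1 and Pdcd1 did not. Only 8 of the 17 against conventional dendritic cells remained, and 18 of the 22 against B cells. Without the library block 10 of the 17 against other immune cells remained.

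Bst2, the tetherin protein that the antibody PDCA-1 recognises and that interferon raises in other cells, was at 3182, 1288, 3313 and 1418 CPM, against 131, 109, 91.5 and 53.8 CPM in other immune cells and 66.7, 50.8, 52.2 and 49.7 CPM in B cells. The groups did not overlap. It was higher by 4.40 (adjusted p = 1.9e-05) and 5.33 (adjusted p = 5.8e-12) on the log2 scale.

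Lair1, an inhibitory receptor for collagen, was at 733, 546, 703 and 473 CPM, while conventional dendritic cells had 1 UMI of it in all libraries together. The difference from that class was 7.50 (adjusted p = 8.9e-05), and from other immune cells, at 84.5, 166, 11.6 and 46.4 CPM, it was 3.34 (adjusted p = 0.0038). Klra17, a lectin-like receptor of the Ly49 family, was at 210.3, 98, 344 and 189 CPM against 0.938, 3.2, 0.613 and 4.2 CPM in other immune cells (6.73, adjusted p = 0.00018). B cells had no UMI of it, which puts plasmacytoid cells at least 275-fold higher, from a floor of 3 counts over the B cells of all libraries. Ly49 receptor genes are near-identical, so their counts may be shared between family members.

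Ly6c2, a surface antigen these cells share with monocytes, was at 4244, 1694, 2532 and 1197 CPM against 689, 58.8, 408 and 300.3 CPM in other immune cells (2.85, adjusted p = 0.0016). It was above the other class within each library. P2ry14, a receptor for UDP-glucose, stood at 378, 140.0, 281 and 199.6 CPM against 19.7, 30.7, 2.7 and 10.2 CPM (4.21, adjusted p = 0.0011).

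Havcr1, the receptor also called TIM-1, was at 146, 84, 109 and 94.5 CPM and at most 1.08 CPM in any library of other immune cells (7.63, adjusted p = 6e-05). Kmo, an enzyme of tryptophan breakdown that the surface list also holds, was at 221, 126, 250.1 and 116 CPM against 3.44, 2.28, 4.14 and 6.13 CPM (5.39, adjusted p = 2.9e-05). Lag3, an inhibitory receptor that T cells use as well, was at 173, 56, 266 and 158 CPM against 71.3, 14.5, 74.9 and 9.93 CPM (2.05, adjusted p = 0.012).

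Ccr7, the receptor that takes mature dendritic cells to lymph nodes, had 4 UMIs in the 94 cells, at 5.39, 0, 15.6 and 21 CPM. Conventional dendritic cells had 209.7, 12.6, 1613 and 566 CPM. It fell by 5.49 on the log2 scale against that class (adjusted p = 0.00014) and by 3.07 against other immune cells (adjusted p = 0.0025); the second call was lost when the immune cells were averaged over 4 classes with equal weight (adjusted p = 0.058).

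The secretory and cytoplasmic list stood mostly higher. Of 25 tested genes 16 were higher than in other immune cells and 1, Gzmb, was lower (list median 2.54), against 6.96 and 6.43% of all genes. Against conventional dendritic cells 20 of 24 were higher and none lower (all genes, 3.91 and 2.46%). Against B cells 22 of 24 were higher and 1, Ptprcap, was lower (all genes, 10.2 and 7.86%). Of the 17 calls against other immune cells 13 remained without each library in turn; Ctsh, Mpeg1, Pld4 and Xbp1 lost theirs. Only 10 of the 20 against conventional dendritic cells remained, and 20 of the 23 against B cells.

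Rnase6 was at 1963, 1078, 1813 and 987 CPM in plasmacytoid cells, against 32.8, 14.1, 17.7 and 19.5 CPM in other immune cells and 205, 152, 106 and 96.4 CPM in B cells. Every plasmacytoid library was above every library of those classes (5.99, adjusted p = 9.2e-07, and 3.33, adjusted p = 1.2e-09). Without the mixed barcodes the 4 levels drew together to 2149, 1762, 1968 and 1951 CPM.

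Plac8, a small cysteine-rich protein, was at 6455, 3109, 5720.2 and 3129.9 CPM against 416, 101, 245 and 266 CPM in other immune cells (4.12, adjusted p = 1.6e-05). Ctsl, a lysosomal protease, was at 1386, 1190.3, 1579 and 924 CPM against 148, 339, 26.1 and 123 CPM (3.26, adjusted p = 0.0041). Dnajc7, a co-chaperone, was at 1397, 966, 1282 and 924 CPM against 102, 74.7, 133 and 90.3 CPM (3.39, adjusted p = 1.8e-05). None of these groups overlapped.

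Several genes were at low levels in other immune cells. Upb1, an enzyme of pyrimidine breakdown, was at 409.9, 140.0, 531 and 294 CPM against 1.68, 0.356, 1.51 and 1.4 CPM in other immune cells (7.98, adjusted p = 3.8e-07), and conventional dendritic cells had 1 UMI of it. Smim5, a small membrane protein, was at 653, 490.1, 500.1 and 284 CPM against 2.23, 1.99, 0.973 and 8.8 CPM (7.43, adjusted p = 7.7e-05). Pacsin1, an adaptor of endocytosis best known from neurons and also needed by these cells for their interferon response, was at 415, 182, 438 and 242 CPM against 19, 8.11, 43.9 and 24.3 CPM (3.75, adjusted p = 6.1e-05). Atp1b1, a subunit of the sodium pump, was at 550.1, 280.1, 1282 and 525 CPM against 23.1, 9.39, 24.1 and 21.2 CPM (4.83, adjusted p = 8.6e-06).

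Gzmb, the serine protease that human plasmacytoid cells are known to make, had no UMI in the 94 cells. Plasmacytoid cells were at least 25.2-fold lower in it than other immune cells, from a floor of 3 counts over all plasmacytoid cells. Xbp1, the factor of the secretory programme of plasma cells, was at 475, 294, 797 and 336 CPM against 110.2, 111, 125 and 191 CPM in other immune cells (1.64, adjusted p = 0.0069). Its levels did not overlap, but the call was lost without the T11-Apobec treated library (adjusted p = 0.058).

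Beyond the lists, the genes with the largest fold over other immune cells were Sh3bgr, Col17a1, Klk1b27, Dntt and Upb1. Klk1b27, a tissue kallikrein, had 281 UMIs in the 94 cells and was at 868, 532, 766 and 347 CPM against 2.19, 0.711, 2.63 and 1.47 CPM in other immune cells (8.38, adjusted p = 7.2e-07). Mouse kallikrein genes are close copies, and the gate used another of them, Klk1, so this level is uncertain and may be the gate's own. Sh3bgr, an SH3-domain binding protein known from muscle, was at 146, 168, 141 and 31.5 CPM against 0.547, 0.0711, 0.0721 and 0.267 CPM (8.81, adjusted p = 0.00012). Atp2a1, the calcium pump of skeletal muscle, was at 269.7, 182, 141 and 73.5 CPM against 0.977, 0.64, 0.216 and 0.6 CPM (7.97, adjusted p = 6e-06).

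Other members of that set were cell surface proteins. Cd209d, a lectin of the DC-SIGN family, was at 372, 56, 797 and 336 CPM against 0.899, 1.49, 2.27 and 5 CPM in other immune cells (7.22, adjusted p = 7.3e-05) and had no UMI in B cells, so that plasmacytoid cells were at least 498-fold higher there. Paqr5, a membrane progesterone receptor, was at 124, 140.0, 109 and 105 CPM against 0.82, 0.427, 0.396 and 0.333 CPM (7.77, adjusted p = 2.5e-05), the most even of the 4 libraries. Slpi, a secreted inhibitor of leukocyte proteases, was also even, at 1575, 2115, 1954 and 1891 CPM against 0, 0, 33.4 and 23.4 CPM in conventional dendritic cells (6.54, adjusted p = 3.9e-05).

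At the low end against conventional dendritic cells, Bcl2a1a, an anti-apoptotic gene with near-identical copies, had 1 UMI in the plasmacytoid cells and was at 175, 126, 356 and 407 CPM in the other class (it fell by 6.25, adjusted p = 0.00036).

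Transcripts of the nucleic acid sensing pathway summed to 3052, 1680, 3266 and 1880 CPM in plasmacytoid cells (3215, 2130, 3466 and 2983 without the mixed barcodes). In other immune cells they summed to 742, 1416, 418 and 826 CPM. Of 25 listed genes 22 were in the table and 13 passed the filter. Of these 6 were higher than in other immune cells, against 6.96% of all genes, none was lower, and the list median was 1.30. Only Irf7 and Ptprs kept the call without each library in turn, and 3 of the 6 kept it without the library block. Against conventional dendritic cells 3 of 12 were higher (all genes, 3.91%). Against B cells 6 of 13 were higher and Blk was lower (all genes, 10.2 and 7.86%). Without each library in turn 0 of the 3 and 4 of the 7 calls remained. 

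Tlr7, the endosomal receptor for single-stranded RNA, had 21 UMIs in the 94 cells. Its level was 59.3, 28, 78.1 and 31.5 CPM against 6.25, 23.5, 1.59 and 3.53 CPM in other immune cells, higher within each library (2.96, adjusted p = 0.035). The call was lost without the T11-Apobec treated library (adjusted p = 0.17), the KPB25Luv treated library (0.1) or the KPB25Luv untreated library (0.12). Tlr9, the receptor for unmethylated DNA, had no UMI in the 416029 plasmacytoid UMIs, which allows up to 7.21 CPM from a floor of 3 counts, and other immune cells had 2, 0, 2 and 0 UMIs of it. Tlr9 was thus rare in the table as a whole, and its level in plasmacytoid cells was not detectable at this depth.

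Downstream of these receptors, Irf7, the factor that switches on interferon genes, was at 582, 140.0, 297 and 94.5 CPM against 53, 69.3, 40.7 and 23.5 CPM in other immune cells. It was higher within each library (2.34, adjusted p = 0.004) and higher than in B cells, at 32.5, 25.4, 18.5 and 64.3 CPM (3.06, adjusted p = 5.7e-05). Ptprs, an inhibitory phosphatase on these cells, was at 102, 140.0, 156 and 73.5 CPM against 12.4, 23.5, 8.79 and 20.7 CPM (2.77, adjusted p = 0.0016). Unc93b1, which carries the receptors to endosomes, was at 529, 280.1, 500.1 and 284 CPM, but other immune cells had 158, 370.2, 38.9 and 138 CPM and no difference was called (1.40, adjusted p = 0.13).

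Interferon transcripts were nearly absent from the table. Of the 20 type I and type III interferon genes of the list 19, Ifnb1 among them, were at 0 UMIs in the 94 cells, with the same limit of 7.21 CPM over all libraries. Ifnk, interferon kappa, had 1 UMI in each KPB25Luv library and none in the T11-Apobec libraries; other immune cells had 0, 1, 15 and 10 UMIs of it. Of 15 tested genes that respond to type I interferon, 3 (Irf7, Stat2 and Bst2) were higher than in other immune cells, against 6.96% of all genes, none was lower, and the list median was 0.45. The list summed to 6418, 2101, 8815 and 4758 CPM in plasmacytoid cells and to 2198, 2192, 3136 and 1992 CPM in other immune cells. Without the mixed barcodes the plasmacytoid sums were 6454, 3182, 9297 and 6655 CPM. Bst2, at the levels given above, made up a large part of the plasmacytoid sums. Of the 3 genes called, Irf7 and Bst2 are also genes of the lineage. Stat2 lost its call without the T11-Apobec treated library (adjusted p = 0.21) or the KPB25Luv untreated library (0.1). Relative to conventional dendritic cells 1 of 15, Bst2, was higher, against 3.91% of all genes. Against B cells 6 of 15 were, against 10.2% of all genes. Of these 6, 2 remained without each library in turn and 2 without the library block.

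Inflammatory mediators fell against other immune cells and conventional dendritic cells, but not as a whole against B cells. Of 23 listed cytokines, chemokines and costimulatory ligands 7 passed the filter against other immune cells. Ccl3, Ccl5 and Cd86 fell, against 6.43% of all genes, and none rose. Relative to conventional dendritic cells 4 of 10 fell (Ccl5, Cd40, Cd86 and Il15), against 2.46% of all genes. The B cell comparison went both ways, with Ccl4 and Cxcl10 higher and 3 of 8 lower (all genes, 10.2 and 7.86%). Without each library in turn 1 of the 4 calls against conventional dendritic cells, that of Ccl5, and 4 of the 5 against B cells remained. Ccl5, a chemokine for T cells, was at 53.9, 0, 78.1 and 31.5 CPM, against 1642, 367, 12522 and 5679.6 CPM in conventional dendritic cells and 1971, 621, 953 and 746 CPM in other immune cells. It fell by 6.54 (adjusted p = 3.2e-05) and 4.92 (adjusted p = 6.8e-05). Cd86, the costimulatory ligand of CD28 and CTLA4, had 1 UMI in the 94 cells and none without the mixed barcodes, where B cells had 53, 152, 106 and 64.3 CPM (it fell by 5.03, adjusted p = 6.5e-05). The Ccl3 call was lost without the T11-Apobec treated library (adjusted p = 0.2), the KPB25Luv treated library (0.06) or the KPB25Luv untreated library (0.13).

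MHC class II genes present peptides to CD4 T cells, and 3 of them (H2-Aa, H2-Ab1 and Cd74) helped to define the conventional dendritic cells and were not compared there. Of the 6 others tested against that class, H2-DMb2 and Ciita fell, against 2.46% of all genes. Both calls were lost without the KPB25Luv untreated library (adjusted p = 0.1 and 0.075), and that of H2-DMb2 also without the KPB25Luv treated library (0.057). Against B cells 9 of 10 fell (list median -1.91), against 7.86% of all genes, and 9 of 9 calls remained without each library in turn. H2-Aa, the alpha chain of I-A, was at 3932, 1162, 5204 and 1891 CPM in plasmacytoid cells and at 6817, 6912, 8434 and 7362 CPM in B cells, lower in every library (it fell by 1.60, adjusted p = 9.8e-06). Cd74, the invariant chain, was at 8936, 1890.5, 12941 and 5346 CPM against 14711, 11816, 22551 and 16929.5 CPM (it fell by 1.56, adjusted p = 5.2e-06), a call lost without the library block (adjusted p = 0.063). H2-DMb2, a subunit of the peptide editor H2-DM, differed most, at 53.9, 14, 31.3 and 52.5 CPM against 1321, 1245, 1104 and 649 CPM (it fell by 4.83, adjusted p = 8e-10). Ciita, the transactivator of the class II genes, was at 37.8, 28, 15.6 and 21 CPM against 310.4, 457, 285 and 228 CPM (it fell by 3.59, adjusted p = 3.2e-07). Against other immune cells 1 of 9 class II genes, H2-DMb2, was lower, against 6.43% of all genes, and none was higher. Of 14 MHC class I genes 13 were tested against other immune cells and 1, H2-T23, was higher, a share close to the 6.96% of all genes. The H2-DMb2 call was lost without the T11-Apobec treated library (adjusted p = 0.076) or the KPB25Luv treated library (0.057), and the H2-T23 call without the T11-Apobec treated library (0.065) or the KPB25Luv untreated library (0.054). H2 genes have near-identical copies, and their counts may be split between them.

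Genes of the lymphoid lineage that plasmacytoid cells are known to carry were present. Of 16 such genes 9 were tested against other immune cells. Dntt, Il7r, Ly6d and Ighm were higher, against 6.96% of all genes, and Jchain, Ctla2a and Ebf1 lower, against 6.43%. Of these, Ebf1 lost its call without the T11-Apobec treated library (adjusted p = 0.062). Dntt, the terminal transferase of lymphoid progenitors, had 35 UMIs and was at 64.7, 140.0, 62.5 and 94.5 CPM against 0.469, 0, 0.36 and 0.2 CPM (8.21, adjusted p = 0.00044). Il7r, the interleukin 7 receptor, was at 372, 280.1, 281 and 273 CPM against 80.6, 20.9, 141 and 69 CPM (2.08, adjusted p = 0.0062), the groups being apart. Ighm, the heavy chain of IgM, was at 1186, 490.1, 1594 and 1082 CPM against 336, 206, 509.6 and 162 CPM (1.74, adjusted p = 0.0025), but lower than in B cells at 2043, 2668, 2318 and 1805 CPM (it fell by 1.19, adjusted p = 0.00037). Ebf1, the B lineage factor, had 3 UMIs and fell by 7.47 against B cells (adjusted p = 3.1e-11), and Pax5, Rag1 and Rag2 had none.

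Cell cycle transcripts were lower in plasmacytoid cells than in other immune cells, but present. The proliferation list summed to 798, 812, 969 and 935 CPM, against 4452, 2910, 6555 and 3207 CPM in other immune cells. A UMI of the list was found in 44 of 48, 14 of 20, 10 of 12 and 14 of 14 plasmacytoid cells. All 20 proliferation genes were tested against other immune cells and 19 fell (list median -3.69), against 6.43% of all genes; 15 of the 19 calls remained without each library in turn. Relative to conventional dendritic cells 10 of 20 fell and against B cells 7 of 12 (all genes, 2.46 and 7.86%). Only 5 of the 10 and 1 of the 7 calls remained without each library in turn, and 3 of the 7 without the library block. Stmn1, a microtubule destabiliser, was at 0, 14, 15.6 and 42 CPM against 225, 105, 513 and 294 CPM in other immune cells (it fell by 4.28, adjusted p = 0.00092). Hmgb2, a chromatin protein of cycling cells, was at 91.7, 84, 46.9 and 73.5 CPM against 928, 490.0, 1579 and 503 CPM (it fell by 3.49, adjusted p = 0.00028). Both lay below every library of the other class. Mki67 had 3 UMIs in the 94 cells and none without the mixed barcodes.

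Genes that mark transitional dendritic cells, which stand between plasmacytoid and conventional cells, were mostly lower than in other immune cells, but not than in B cells. Of 13 tested 9 fell against other immune cells, against 6.43% of all genes, and none rose. Axl, Cd5, Crip1 and Tmem176b lost the call without at least 1 of the libraries. Without the library block 1 of the 9 calls remained. Against conventional dendritic cells 4 of 11 fell and none rose (list median -1.65), against 2.46 and 3.91% of all genes. Of these 4 calls 2 remained without each library in turn. Against B cells 2 of 10, Lyz2 and Lgals3, rose and 2 fell (list median 0.24), against 10.2 and 7.86% of all genes. Lyz2 lost that call without the mixed barcodes. The dissociation stress list, which tracks the handling of tissue, had 2 of 14 genes higher than in other immune cells (Jun and Zfp36) and 1 lower (Dusp1). Of all genes 6.96% were higher and 6.43% lower. Jun and Zfp36 lost the call without the T11-Apobec treated library (adjusted p = 0.11 and 0.33), and none of the 3 remained without the library block. None of 14 was called against conventional dendritic cells by edgeR, with 1 higher at an unadjusted p under 0.05.

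Some genes were found in only part of the 94 cells. At few UMIs per cell, a cell without a UMI of such a gene is not shown to lack it. Cd8b1, the beta chain of CD8, was found in 20 of 48, 15 of 20, 4 of 12 and 7 of 14 cells (41.7, 75, 33.3 and 50%). After thinning to 1000 UMIs it was found in 15 of 48, 11 of 20, 3 of 12 and 4 of 13. In B cells, which should lack it, the share was 3.44, 0, 3.99 and 5.38% at median depths of 1669, 940.5, 2666 and 2028 UMIs, and in macrophages 6.83, 0.207, 14.3 and 21.8%. In all, 18 cells had both Cd8b1 and Cd8a, and 15 had Cd8b1 and Cd4. Its summed level of 572, 812, 219 and 357 CPM was above that of conventional dendritic cells, at 0, 0, 11.1 and 37.4 CPM (4.53, adjusted p = 0.0015). The 12 T cell markers, of which Cd8b1 is 1, summed to 653, 952, 547 and 777 CPM in plasmacytoid cells and to 5499.7, 651, 7422 and 3181 CPM in other immune cells; 8, 8, 10 and 9 of them had a UMI, and Cd3e was at 0 by the rule.

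Cdh5, the cadherin of endothelial junctions and 1 of the 14 tumour and stromal markers, was found in 27 of 48, 8 of 20, 8 of 12 and 1 of 14 cells and thinned in 8 of 48, 6 of 20, 2 of 12 and 0 of 13. The share in T cells was 0.211, 1.1, 0.352 and 1.67%. Its summed level was 221, 168, 172 and 10.5 CPM against 0.86, 6.26, 0.829 and 1.93 CPM in other immune cells (6.07, adjusted p = 0.001). Ccr2, the receptor that brings monocytes to tissue, was found in 26 of 48, 10 of 20, 12 of 12 and 10 of 14 cells, and thinned in 14 of 48, 3 of 20, 9 of 12 and 3 of 13. The share in B cells was 1.34, 0, 0.666 and 0.769%, and in macrophages, which express it, 39.4, 54.8, 10.7 and 22.8%.

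**Figure D3:**
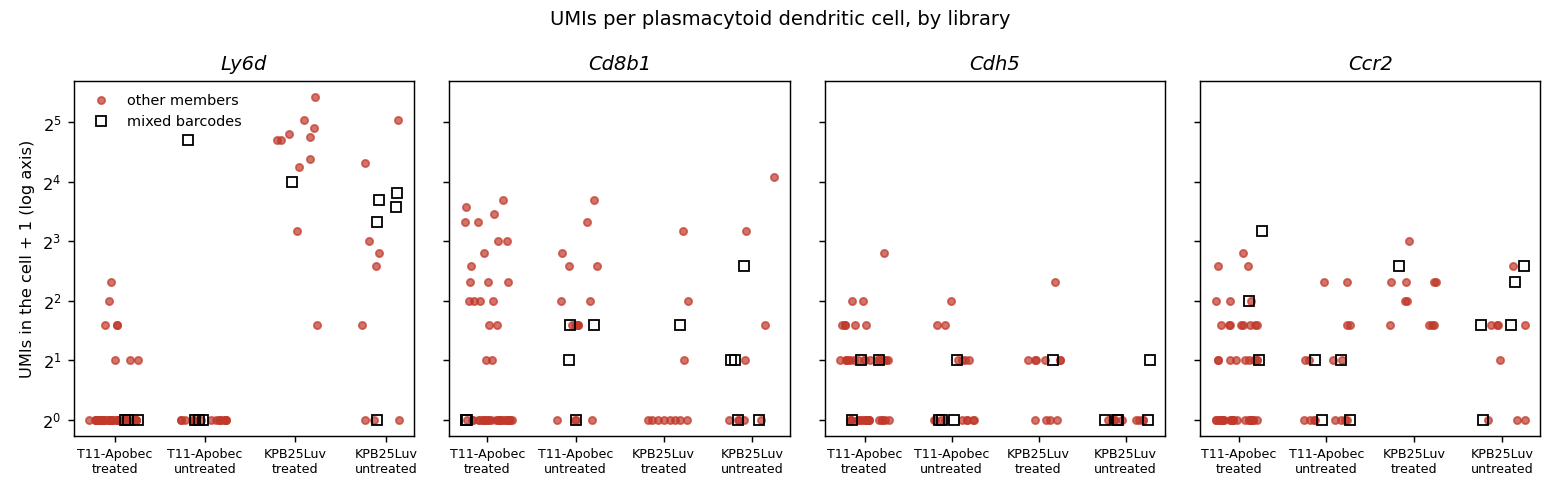
UMIs of Ly6d, Cd8b1, Cdh5 and Ccr2 in each of the 94 plasmacytoid dendritic cells, plus 1 on a log axis, by library; open squares are the 13 mixed barcodes. Ly6d is found in all 12 cells of the KPB25Luv treated library and in 8 of 48 cells of the T11-Apobec treated library, while Cd8b1 is spread over all 4.

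Ly6d, a small surface antigen of early lymphoid cells encoded on chromosome 15 from 74762056 to 74763620 on the reverse strand, divided the cells by tumour model. It was found in 8 of 48 (16.7%), 1 of 20 (5%), 12 of 12 (100%) and 10 of 14 cells (71.4%), with exact 95% intervals of 7.48 to 30.2%, 0.127 to 24.9%, 73.5 to 100% and 41.9 to 91.6%. Thinned to 1000 UMIs the shares were 10.4, 5, 91.7 and 53.8%. At least 5 UMIs of it were seen in 0, 1, 11 and 9 cells. The summed level was 86.3, 350.1, 4204 and 1218 CPM, and without the mixed barcodes 98, 0, 4585 and 2037 CPM. B cells of the same libraries had 283, 305, 1262 and 2089 CPM, so the KPB25Luv libraries were also above the T11-Apobec libraries in another cell type. In T cells 1.1, 0, 2.06 and 2.32% had a Ly6d UMI.

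Other genes set the models apart in the same way. Without the mixed barcodes and among genes with at least 20 UMIs, 4 genes had a lowest KPB25Luv level at least 4 times the highest T11-Apobec level, and 5 genes the reverse; this is a description with no test. Ly6e, an interferon response gene, was at 643, 184, 2960 and 3701 CPM, and B cells had 647, 483, 1899 and 2150 CPM. Cd7, a surface protein of T and NK cells, was at 1010.3, 605, 36.1 and 57.4 CPM. H2-Eb1, the beta chain of the class II molecule I-E, was at 1714, 736, 54.2 and 0 CPM, and B cells had 4089.7, 4549, 180.3 and 181 CPM. The other genes higher in KPB25Luv included Gdpd3, and those higher in T11-Apobec were Ly6c1, Hcst and Klk4. The median mitochondrial share per plasmacytoid cell also differed between the models, at 5.14, 5.14, 3.66 and 3.13%, with 42 cells over 5% (30, 12, 0 and 0); its part in these differences was not tested.

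The share of plasmacytoid cells among immune cells addresses whether checkpoint therapy came with more or fewer of them. In T11-Apobec tumours it was 0.915% (48 of 5248 immune cells, exact 95% interval 0.675 to 1.21%) with therapy and 0.535% (20 of 3737, 0.327 to 0.825%) without, a ratio of 1.71 (0.995 to 3.04). In KPB25Luv tumours it was 0.234% (12 of 5120, 0.121 to 0.409%) with therapy and 0.456% (14 of 3067, 0.25 to 0.765%) without, a ratio of 0.513 (0.217 to 1.20). With 1 library per group there is no test, and these intervals, like all others given here, cover counting error only. Both intervals reach 1, but whether they do depends on the gate.

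**Figure D4:**
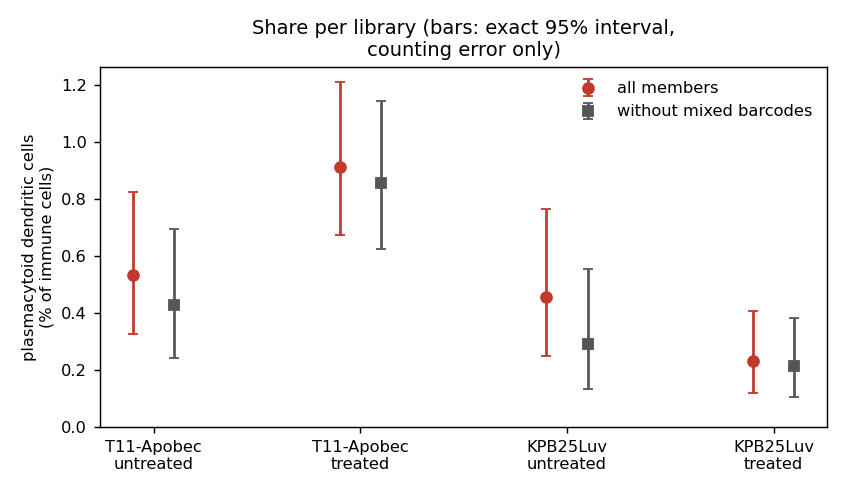
Plasmacytoid dendritic cells as a percentage of immune cells in each of the 4 libraries, with exact 95% intervals for counting error, for all members (circles) and without the mixed barcodes (squares). The T11-Apobec treated library has the highest share, 0.915%, and the KPB25Luv treated library the lowest, 0.234%.

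Without the mixed barcodes the T11-Apobec ratio was 2.00 (1.11 to 3.79) and the KPB25Luv ratio 0.731 (0.275 to 2.00). The T11-Apobec interval also lay above 1 with at least 3 Siglech UMIs (1.86, 1.06 to 3.40), without the negative markers (2.00, 1.25 to 3.29), without the highest doublet scores of Scrublet (1.88, 1.07 to 3.45), without barcodes found in 2 libraries (1.76, 1.01 to 3.18) and with cells thinned to 2000 UMIs before the gate (2, 1.14 to 3.65). It reached below 1 with at least 1 Siglech UMI (1.55, 0.92 to 2.70) and with at most 5% mitochondrial UMIs (1.53, 0.635 to 4.08). The KPB25Luv interval lay below 1 without the negative markers (0.485, 0.24 to 0.965) and with thinned cells (0.293, 0.104 to 0.78), and included 1 under the other gates. Over all kept cells, of which the untreated T11-Apobec library had 6584 non-immune cells and the treated one 883, the T11-Apobec ratio was 4.04 (2.35 to 7.19) and the KPB25Luv ratio 1.05 (0.445 to 2.45). The remaining immune cells differed as well: T cells numbered 2373 with therapy and 273 without in T11-Apobec tumours, and 3696 and 777 in KPB25Luv tumours.

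Expression within the plasmacytoid cells, treated against untreated, was also compared between single libraries, without a test. Genes with at least 10 UMIs over both libraries were measured, 0.5 counts were added, and 2-fold was the limit. In T11-Apobec 459 of 3570 genes (12.9%) were at least 2-fold higher with therapy and 401 (11.2%) at least 2-fold lower; without mixed barcodes 304 (10.6%) and 317 (11.1%) of 2855. In KPB25Luv 340 of 2539 (13.4%) were higher and 416 (16.4%) lower; without mixed barcodes 178 (12.4%) and 127 (8.86%) of 1434. In both models the mixed barcodes held more of the UMIs without therapy (46.8 and 63.4%) than with it (11.9 and 13.4%), so values without them are given as well. List counts and list medians without them keep the genes measured over all members. The shares of all genes without them cover only genes that still had 10 UMIs, so the 2 are not on the same footing.

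Interferon response genes leaned towards the treated libraries. In T11-Apobec 11 of 11 measured genes were at least 2-fold higher (list median 1.43), and 4 were without the mixed barcodes (0.84). In KPB25Luv 5 of 9 were higher (1.22), and 5 without the mixed barcodes (1.21). Of all genes measured, 12.9% were higher in T11-Apobec and 13.4% in KPB25Luv cells. Without the mixed barcodes it was 10.6 and 12.4% of the genes that still had 10 UMIs, a filter not applied again to the list. Irf7 was at 582 CPM with therapy and 140.0 without in T11-Apobec cells, from 108 and 10 UMIs, a log2 ratio of 1.99 (1.12 to 3.16), and 1.36 (0.45 to 2.60) without the mixed barcodes. In KPB25Luv cells it was at 297 and 94.5 CPM, from 19 and 9 UMIs (1.61, 0.44 to 2.98), and 1.45 (-0.01 to 3.59) without them.

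Ifi27l2a, an interferon-induced protein of mitochondria, was at 1172 and 231 CPM in KPB25Luv cells (2.32, 1.64 to 3.10; 2.60 without the mixed barcodes). In T11-Apobec cells it was at 911 and 336 CPM (1.41, 0.82 to 2.12), and 0.41 (-0.21 to 1.15) without them. Bst2 was at 3182 and 1288 CPM in T11-Apobec cells (1.30, 0.99 to 1.64; 0.88 without mixed barcodes) and at 3313 and 1418 CPM in KPB25Luv cells (1.22, 0.91 to 1.55; 0.74 without). Ly6a, the Sca-1 antigen that interferons raise, was at 901 and 224 CPM in T11-Apobec cells (1.97, 1.27 to 2.85; 2.48 without) and at 2204 and 788 CPM in KPB25Luv cells (1.48, 1.07 to 1.91; 1.02 without).

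MHC class II genes were higher with therapy in T11-Apobec cells, 8 of 8 measured by at least 2-fold (list median 1.73) and 5 without the mixed barcodes (1.14). Cd74 was at 8936 and 1890.5 CPM (2.24, 1.99 to 2.50), and 1.60 (1.33 to 1.89) without the mixed barcodes. H2-Aa was at 3932 and 1162 CPM (1.75, 1.43 to 2.10; 1.08 without). In KPB25Luv cells 3 of 6 genes were at least 2-fold higher and 1 without the mixed barcodes; Cd74 was at 12941 and 5346 CPM (1.27, 1.11 to 1.44; 0.58 without). Of the MHC class I genes, 5 of 11 were at least 2-fold higher in T11-Apobec cells and 6 of 13 in KPB25Luv cells, and 3 and 2 without the mixed barcodes. Of all genes measured, 12.9 and 13.4% were, and 10.6 and 12.4% without the mixed barcodes. H2-Q7, a non-classical class I gene with close copies, had 35 UMIs with therapy and 0 without in T11-Apobec cells, and 29 and 0 without the mixed barcodes.

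**Figure D5:**
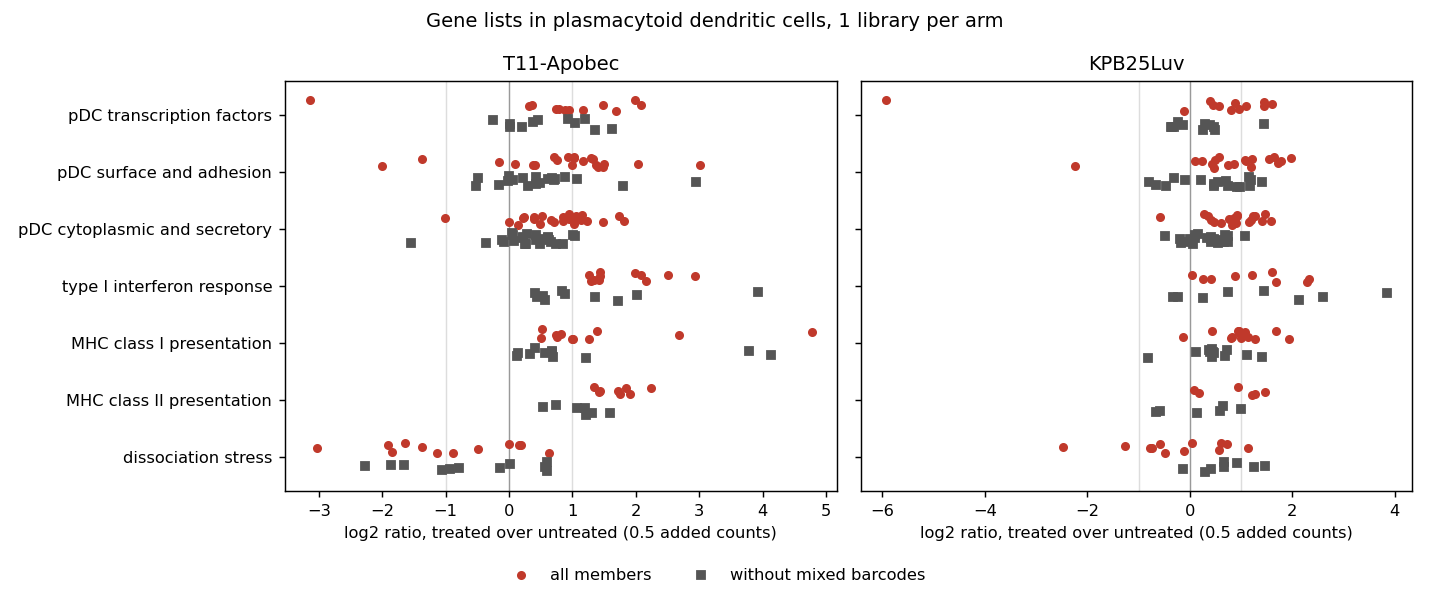
Log2 ratio of treated over untreated plasmacytoid dendritic cells for the measured genes of 7 lists in each tumour model, 1 library per arm; circles are all members and squares leave out the mixed barcodes. Interferon response and MHC class II genes lie to the right of 0 in T11-Apobec cells, and nearer to 0 without the mixed barcodes; most stress genes lie to the left there.

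For genes of the lineage the ratios lay nearer to 0 once the mixed barcodes were left out. The transcription factor list had a median log2 ratio of 0.91 in T11-Apobec and 0.85 in KPB25Luv cells, and 0.42 and 0.06 without the mixed barcodes. Irf8 was at 4379 and 2521 CPM in T11-Apobec cells (0.79, 0.56 to 1.04) and at 4801 and 4156 CPM without the mixed barcodes (0.20, -0.04 to 0.46). Tcf4 was at 1181 and 700.2 CPM (0.74, 0.31 to 1.23) and at 1274 and 921 CPM without them (0.45, -0.05 to 1.03). Rnase6 was at 1813 and 987 CPM in KPB25Luv cells (0.88, 0.47 to 1.28) and at 1968 and 1951 CPM without them (0.01, -0.44 to 0.47).

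Some genes were lower with therapy. Cd8b1 was at 572 and 812 CPM in T11-Apobec cells (-0.51, -0.98 to -0.02; -1.11 without the mixed barcodes) and at 219 and 357 CPM in KPB25Luv cells (-0.68, -1.72 to 0.23; -1.81 without). Stress genes were at least 2-fold lower in 6 of 12 cases in T11-Apobec cells, against 11.2% of all genes, and higher in none. Junb was at 167 and 630.2 CPM (-1.91, -2.62 to -1.22), and -2.27 without the mixed barcodes. In T11-Apobec cells without the mixed barcodes 5 were lower. In KPB25Luv cells 1 of 12 was higher and 2 were lower (list median -0.30), against 13.4 and 16.4% of all genes. Without the mixed barcodes 2 were higher and none lower (0.68), against 12.4 and 8.86% of all genes. Ltb, lymphotoxin beta, had 46 UMIs with therapy and 0 without in T11-Apobec cells, and 44 and 0 without the mixed barcodes.

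Several of the genes furthest down in the treated libraries were those of other cell types. Spp1, a macrophage and tumour product, was at 140.2 and 2493 CPM in T11-Apobec cells (-4.13), and -1.42 without the mixed barcodes, and in KPB25Luv cells it had 0 and 201 UMIs, and 0 and 11 without them. Cald1, of stromal and tumour cells, had 1 and 26 UMIs in T11-Apobec cells, and 1 and 2 without the mixed barcodes. Krt18, of epithelial cells, had 0 and 77 UMIs in KPB25Luv cells, 0 and 8 without the mixed barcodes. Also among the lowest there was S100a6, with 19 and 809 UMIs, found in 8 of 12 and 14 of 14 cells. Its log2 ratio was -4.80, and -2.88 (-3.79 to -2.13) without the mixed barcodes. Anxa2 had 0 and 97 UMIs there, and 0 and 13 without the mixed barcodes. In T11-Apobec cells Cd63 had 5 and 48 UMIs, and 4 and 2 without them. Beside these, the summed tumour and stromal markers, given above, were lower with therapy in both models, also without the mixed barcodes. Their part in the remaining differences was not tested.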

How the data were processed

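Single-cell suspensions of mouse mammary tumours of 4 groups were sequenced with a droplet method that reads transcript 3' ends, 1 library per group. Per the submitters' processing notes, Cell Ranger 3.0.2 made the deposited tables on mouse build mm10; they hold raw UMI counts per gene and barcode, not normalized, for 31054 features and 30090 barcodes. The deposited counts summed to 47131040, 98475778, 30369476 and 87677328 UMIs per library (T11-Apobec treated, T11-Apobec untreated, KPB25Luv treated, KPB25Luv untreated), and 6131, 10321, 5273 and 6475 cells were kept. Of the kept cells, 790 barcodes occurred in more than 1 library; 2 of them were plasmacytoid cells, and no plasmacytoid barcode was shared with another.

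The members, the 23 gene lists (351 genes, of which 4 were absent from the table) and the tests were chosen with earlier results of these data known. Other immune cells had at least 3 UMIs, and at least 0.1% of their UMIs, from Ptprc, Coro1a, Laptm5, Cd52 and Rac2. Conventional dendritic cells were gated on Flt3, Zbtb46, Xcr1, Clec9a, Cd209a, Ccl22, Fscn1 and class II genes, and B cells on at least 2 Cd79a and 1 Ms4a1 UMIs.

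Counts were summed per library and class, and genes with a mean of at least 20 CPM were tested with edgeR 4.0.16 (TMM, quasi-likelihood test, R 4.3.3), library as a block because both classes come from the same suspension, Benjamini-Hochberg adjustment over all genes tested, called at 0.05. The test gives no standard error, so the level in each library is shown. In simulated counts with 4-fold changes it recovered 94 of 100 raised and 73 of 98 lowered genes against other immune cells. Against conventional dendritic cells it recovered 93 of 100 and 50 of 96, and against B cells 94 of 100 and 50 of 97. The changed genes were drawn above a higher mean level than the filter of the test, with a single spread set for all genes. Recovery among the genes of lowest level was thus not measured. P-values set the difference between classes within a library against its spread over the libraries, which differ in model and treatment. Treated and untreated cells were compared as single libraries with exact intervals (SciPy 1.17.1) and no test.

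Genes named are members of the lists, the 20 highest and 10 lowest called genes per class comparison with the same sign in every library, and the 5 highest and 5 lowest per model for therapy; Gdpd3, Hcst, Klk4, Ly6a and S100a10, and which genes to describe cell by cell, were chosen after the values were seen. Alternatives were DESeq2 1.42.0, library sizes without TMM, other level filters, no block, each library left out, other gates, Scrublet scores (Scanpy 1.11.5; 1710 cells and 5 plasmacytoid cells removed), thinned cells, a limit of 5% mitochondrial UMIs and, added after the cells were seen, no mixed barcodes. Doublets were otherwise not removed. A few genes are not reported here.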

Additional observations from a re-analysis of the deposited data

Results flagged for a closer look

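Ly6d differed in direction between the models when treated plasmacytoid cells were set against untreated ones: the log2 ratio was -2.00 in T11-Apobec and 1.78 in KPB25Luv cells. The difference between the models was not tested. In T11-Apobec cells it came from 16 UMIs in 8 cells with therapy and 25 UMIs in 1 cell without; that cell is a mixed barcode, and without the mixed barcodes the ratio was 2.94, from 16 and 0 UMIs.

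Lyz2, the lysozyme of macrophages and neutrophils, also differed in direction, with a log2 ratio of 2.71 in T11-Apobec cells (212 and 12 UMIs). In KPB25Luv cells it had 0 UMIs with therapy and 157 without, so the ratio of -7.73 there rests on the 0.5 added counts. Its interval ended at -4.82 and had no lower limit. The difference between the models in Lyz2 was not tested. Without the mixed barcodes the counts were 29 and 9 UMIs in T11-Apobec cells, a ratio of -0.47, and 0 and 12 UMIs in KPB25Luv cells.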

How the results depend on the processing

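The counts of called genes moved with the settings. Against other immune cells, 737 genes were called; there were 1402 (469 higher, 933 lower) with no filter on level, 284 with a mean of at least 100 CPM, 471 with at most 5% mitochondrial UMIs, and 370 to 802 with each library left out (370 without the T11-Apobec treated, 475 without the KPB25Luv untreated library). Against conventional dendritic cells, 349 were called; there were 231 by DESeq2, 164 with a mean of at least 100 CPM, 229 with at least 1 Siglech UMI, 202 with at most 5% mitochondrial UMIs, 900 (401 higher, 499 lower) without the mixed barcodes, and 117 to 433 with each library left out (180 without the T11-Apobec treated, 141 without the KPB25Luv treated, 117 without the KPB25Luv untreated library). Against B cells, 963 were called, with 448 at a mean of at least 100 CPM and 623 to 977 with each library left out (623 without the T11-Apobec treated library).

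Without the library as a replicate block, 486 genes (320 higher, 166 lower) were called against other immune cells, 381 against conventional dendritic cells and 731 against B cells. Among the genes named, without the block Ccl3 (adjusted p = 0.14), Ccr7 (0.13), H2-DMb2 (0.053), H2-T23 (0.43), Jun (0.1), Lag3 (0.17), Tlr7 (0.15) and Zfp36 (0.13) were not called against other immune cells, nor Cd74 (0.063) against B cells. Ccl3 changed sign, to 0.28, when 4 immune classes were weighted equally.

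The log2 ratio of the T11-Apobec share was 0.77 over immune cells and 2.01 over all kept cells. For therapy in T11-Apobec cells, 860 genes were past 2-fold; there were 342 with at least 20 UMIs and 219 in thinned cells, and Ly6d and Lyz2 changed sign without the mixed barcodes (2.94 and -0.47). In KPB25Luv cells 756 were past 2-fold, with 300 at 20 UMIs, 105 thinned, 387 without the highest Scrublet scores and 305 without the mixed barcodes. The cause of these shifts was not tested, other than that the stricter filters and thinning leave fewer genes measured. Of the 1051 alternative values for single genes in the class comparisons, 994 kept their direction and side of the threshold, 52 lost the call, 4 gained it and 1 reversed. With 12 to 48 plasmacytoid cells a library, genes of few UMIs were not measurable.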

Other observations

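Of 2331 genes measured in plasmacytoid cells of both models, 265 were at least 2-fold higher with therapy in T11-Apobec and 308 in KPB25Luv cells. Higher in both were 74, which is 27.9% of those in T11-Apobec and 24.0% of those in KPB25Luv cells. Lower were 194 and 339, with 76 lower in both (39.2% and 22.4%). Without the mixed barcodes 123 of 1385 genes were higher in T11-Apobec and 167 in KPB25Luv cells, and 19 were higher in both (15.4% and 11.4%). Lower were 65 and 121, with 12 lower in both (18.5% and 9.92%). Those 19 included Irf7, Ly6a, Ly6d, Serinc3, H2-Q7 and the class II peptide editor H2-DMb1, and the 12 included Anxa2, Spp1, S100a10 and Cd8b1. No test was made, since each arm is 1 library.

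Serinc3, a membrane protein that restricts retroviruses, was at 766 and 147 CPM in treated and untreated KPB25Luv cells, found in 12 of 12 and 9 of 14 cells (log2 ratio 2.34, 1.5 to 3.35; 2.02 without the mixed barcodes). In T11-Apobec cells it was at 227 and 154 CPM (0.51, -0.43 to 1.66; 1.07 without). Blnk, the adaptor of B cell receptor signalling, was at 484 and 84 CPM in KPB25Luv cells (2.46, 1.37 to 3.86; 2.36 without the mixed barcodes) and at 205 and 98 CPM in T11-Apobec cells (0.98, -0.12 to 2.47; 0.63 without).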
